A study of Mus musculus with 6 samples.

Results

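The Janus kinases and the STAT factors carry cytokine signals from the cell surface to the nucleus, and 9 of their genes were examined in colon tissue with tumors: Jak1, Jak2, Jak3, Tyk2, Stat2, Stat4, Stat5a, Stat5b and Stat6. They were chosen by symbol, as all gene probes that the scanner output names with one of these symbols, which gave 16 of the 56605 gene probes on the array. Of the 16 probes, 13 had a signal well above background in every array of one group or the other, which was the condition for a test, and each of the 9 genes had at least 1 such probe among 19087 genes tested. The tissue came from C57BL/6 mice (male, 6 to 8 weeks old when bought) in which the carcinogen AOM (10 μg/g), followed by 2% DSS given as drinking water to inflame the bowel, had produced colitis-associated tumors. All mice of both groups had received AOM and DSS. One group of 3 samples (labelled Rgnanomedicine) came from animals dosed orally with RG@M-γ-CD, the kinase inhibitor regorafenib (RG) carried by a mannose-modified γ-cyclodextrin, at a dose of 30 μg/g complex (10 μg/g as RG). The other 3 samples came from mice given PBS by mouth. Treatment lasted 21 days and was followed by 14 days in which the mice were watched, and then the colons were taken. Each sample had 1 one-color Agilent array. The legends of the study describe the samples of each group as independent mice. RNA of whole tissue was measured, so that fewer cells of a type and less RNA per cell cannot be told apart.

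The cytokine receptors that use this pathway have no kinase of their own, and their signaling chains bind Janus kinases. When the cytokine brings the chains together, the kinases phosphorylate each other and the receptor, and STAT factors dock there, are phosphorylated, pair and enter the nucleus. Jak1, Jak2 and Tyk2 are used by many receptors in most tissues, whereas Jak3 is found mainly in blood cells and binds the common γ chain of the receptors for IL-2, IL-4, IL-7, IL-9, IL-15 and IL-21. STAT2 acts in the response to type I interferon, STAT4 in the response to IL-12, STAT5A and STAT5B downstream of IL-2, growth hormone and other cytokines, and STAT6 downstream of IL-4 and IL-13. In the gut this pathway serves both immune cells and the epithelium.

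Since the 16 probes differ in what they read, the sequences of those that matter for the comparison are given first, as the scanner output holds them, with positions on the mm9 build that its header names. Jak3 had 3 probes. The brightest, A_55_P2010912 at chr8:74210801-74210860, shared no run of 15 bases with any other probe on the array. The dimmer A_55_P2728208 at chr8:74204097-74204161, designed on a single cDNA, lies 9983 bases closer to the 5′ end than the last Jak3 probe, and 18 of its bases fall in runs shared with 5 other probes. Tyk2 had a probe of its transcript, A_51_P466824, and a second, A_55_P2738317 at chr9:20927943-20928002, designed on a cDNA 18622 bases further 5′, with 53 of its 60 bases in runs of 15 that it shares with 21 other probes. In the sequences that follow, capitals mark bases that lie in such shared runs, on either strand.
Jak3 A_55_P2010912: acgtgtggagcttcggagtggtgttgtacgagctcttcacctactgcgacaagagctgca
Jak3 A_55_P2728208: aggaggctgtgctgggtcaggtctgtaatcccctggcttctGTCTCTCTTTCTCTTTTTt
Tyk2 A_55_P2738317: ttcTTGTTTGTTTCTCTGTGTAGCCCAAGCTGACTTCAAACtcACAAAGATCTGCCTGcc
Of all gene probes, 44.2% share at least 1 such run with another probe, so the sharing itself is common, and the number of partners of the second Tyk2 probe is what sets it apart among the 16. The third Jak3 probe, A_51_P355360 at chr8:74214085-74214144, carries accessions of both Jak3 and Insl3, a hormone gene that in RefSeq overlaps the 3′ end of Jak3, so its signal is that of either transcript. None of the probes of Stat5a shared a run of 15 bases with another probe. Probes were not compared with the Stat5a and Stat5b transcripts, so whether a probe reads both STAT5 genes was not tested. The second probe of Tyk2, the second probe of Stat5b (A_52_P663027) and the second probe of Stat2 (A_66_P102138) were well above background on 0 of 6 arrays and give no level.

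Of the gene probes, between 49.6% and 55.2% were well above background on each array, and 0 gene spots were saturated. The 6 arrays came from 1 slide and 1 scan. The RG@M-γ-CD arrays shared slide row 1 with PBS replicate 1, while row 2 held PBS replicates 2 and 3, so position cannot be fully told apart from the label. All 10 markers of colon epithelium were well above background on all arrays. Across the genes tested, RG@M-γ-CD replicate 1 correlated with PBS replicates 2 and 3 (r of 0.985 and 0.987) more closely than with RG@M-γ-CD replicates 2 and 3 (0.942 and 0.973), which is a correlation across genes, which are not independent replicates. PBS replicate 1 correlated more closely with PBS replicates 2 and 3 (0.981 and 0.983) than with RG@M-γ-CD replicates 2 and 3 (0.972 and 0.977). A clustering shown in the study's supplement places RG@M-γ-CD replicate 1 and PBS replicate 1 each with the other label. The labels are the basis of all main results. Beside them, values are given for the 9 genes, for each list of pathway genes and for the genes named in it with these 2 arrays left out, and with them exchanged, a grouping in which no side is called treated.

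With the arrays as labelled, limma called 0 of the 9 genes at an adjusted p below 0.05, beside 0% of all genes tested. At an unadjusted p below 0.05 limma counted 1 of the 9 genes, Stat4, where 2.2% of all genes lay. The methods' t-test also gave 0 of 9 past the adjusted threshold, and 0 of 9 below an unadjusted p of 0.05. In Stat4 each RG@M-γ-CD array lay below each PBS array, and in the other 8 genes the groups overlapped. Over all genes 4.57% did not overlap, 2.19% with RG@M-γ-CD below and 2.38% with it above. Counted over the 13 probes, 1 lay below an unadjusted p of 0.05 and 1 did not overlap, again that of Stat4, beside 1.94% and 4.52% of all probes tested. Of the 9 genes, 7 had a lower mean in RG@M-γ-CD and 2 a higher one, with a median log2 change of -0.12, beside 52.8% lower and a median of -0.012 over all genes. The changes of the 9 genes ran from -0.62 for Stat4 to 0.17 for Stat5b. All levels here are log2 intensities minus the 75th percentile of that array's gene probes. They compare arrays for 1 probe, not probes with each other.

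**Figure D1:**
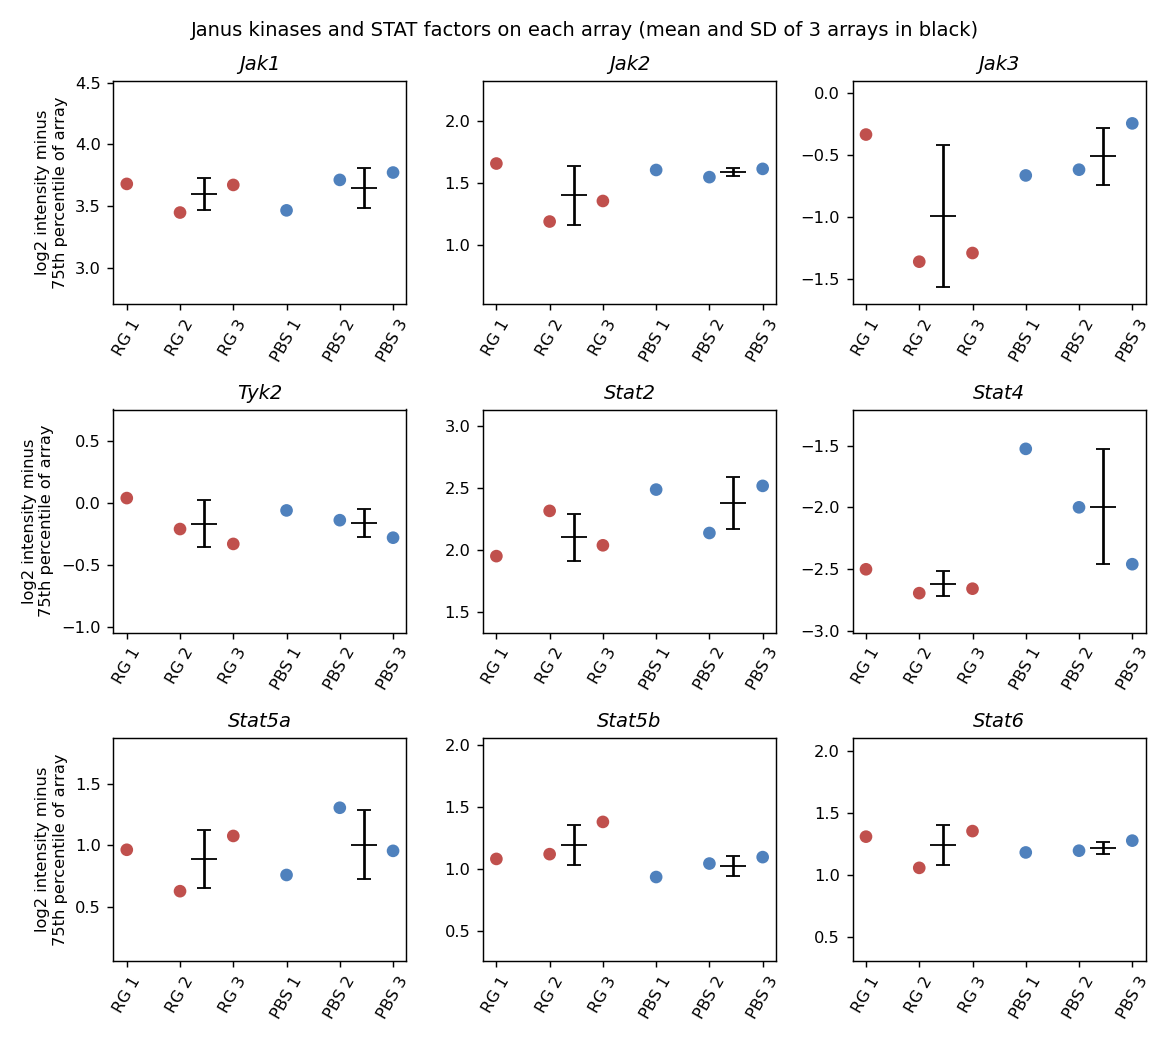
Level of each gene on its brightest probe, as log2 intensity minus the 75th percentile of the array (vertical axes, each spanning the same width), on the 3 RG@M-γ-CD arrays (RG, red) and the 3 PBS arrays (blue), with the mean and SD of each group in black. Stat4 is the gene in which all red points lie below all blue points, while in Jak3 RG@M-γ-CD replicates 2 and 3 lie near -1.3 and replicate 1 lies at -0.33 among the PBS arrays.

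Among the Janus kinases, Jak3 had the largest difference as labelled, which did not exceed the spread between arrays. Its brightest probe stood at -0.33, -1.36 and -1.29 in RG@M-γ-CD replicates 1, 2 and 3 and at -0.66, -0.62 and -0.24 in PBS replicates 1, 2 and 3. RG@M-γ-CD replicates 2 and 3 were thus the lowest arrays, and replicate 1 lay inside the PBS range. The means were -0.99 ± 0.57 and -0.51 ± 0.23 (SD, n = 3 each), a log2 change of -0.49 (standard error 0.31, 95% interval -1.23 to 0.26, adjusted p = 0.99998 from limma). The probe shared with Insl3 had a log2 difference of -0.62 (standard error 0.34) and had the same 2 arrays lowest, at -2.10 and -1.95, against -0.95 in RG@M-γ-CD replicate 1 and -0.74 to -1.22 in PBS. The third probe, with the shared CT-rich run printed above, had a log2 difference of -0.057 (standard error 0.17). Its change differed from that of the brightest probe by 0.43, which an exact permutation test of the 6 arrays (two-sided) placed at p = 0.30, or 0.60 after adjustment over the 4 pairs of probes compared. The smallest p this test can give with 3 arrays against 3 is 0.10.

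Jak2, which serves the receptors for growth hormone, erythropoietin and IFN-γ, stood at 1.66, 1.19 and 1.35 in RG@M-γ-CD and at 1.60, 1.55 and 1.61 in PBS. Again RG@M-γ-CD replicates 2 and 3 were below all other arrays, and replicate 1 was the highest of the 6. The log2 change was -0.19 (standard error 0.17, 95% interval -0.60 to 0.23). On its dimmer probe A_52_P309376, 23170 bases further 5′, Jak2 stood at -2.87, -2.61 and -3.10 in RG@M-γ-CD and at -2.51, -2.35 and -2.68 in PBS, a change of -0.35 (standard error 0.19), and the changes of both probes differed by -0.16 (exact permutation p = 0.60, adjusted 0.70).

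For Jak1 and Tyk2 the differences were smaller than their standard errors. Jak1, a partner in most of these receptors, stood at 3.68, 3.45 and 3.67 in RG@M-γ-CD and at 3.47, 3.71 and 3.77 in PBS. The log2 change of -0.050 had a standard error of 0.16 and a 95% interval of -0.44 to 0.34. Tyk2, which pairs with other Janus kinases at the receptors for type I interferon and IL-12, ranged from -0.33 to 0.038 in RG@M-γ-CD and from -0.28 to -0.061 in PBS. Its change was -0.0074 (standard error 0.17, 95% interval -0.41 to 0.39), and the intervals of both genes leave room for changes of either sign.

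Among the STAT genes, Stat4 had the largest difference, lower in RG@M-γ-CD and short of the adjusted threshold. It stood at -2.50, -2.69 and -2.66 in RG@M-γ-CD replicates 1, 2 and 3 and at -1.53, -1.999 and -2.46 in PBS replicates 1, 2 and 3. The groups did not overlap, but the gap between RG@M-γ-CD replicate 1 and PBS replicate 3 was small, and most of the difference lay in PBS replicates 1 and 2. The means were -2.62 ± 0.10 and -1.99 ± 0.47 (SD, n = 3 each), a log2 change of -0.62 (standard error 0.25, 95% interval -1.23 to -0.0083, unadjusted p = 0.0478 and adjusted p = 0.99998 from limma). The exact permutation test gave p = 0.10, its smallest possible value. Within row 1 of the slide, the 3 RG@M-γ-CD arrays lay 1.09 below the single PBS array on average, a mean difference of -1.09 with no test. Without PBS replicate 1 the change was -0.39, and without PBS replicate 3 it was -0.85. The lowest adjusted p with 1 array left out was 0.437.

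Stat2, whose product joins IRF9 in the complex that interferon sets up, stood at 1.95, 2.31 and 2.03 in RG@M-γ-CD and at 2.48, 2.13 and 2.51 in PBS. PBS replicates 1 and 3 were the highest arrays, and PBS replicate 2 lay among the treated ones. The log2 change was -0.28 (standard error 0.19, 95% interval -0.73 to 0.17, adjusted p = 0.99998 from limma).

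Stat5a, Stat5b and Stat6 showed no difference beyond the spread. For Stat5b the arrays stood at 1.08, 1.12 and 1.38 in RG@M-γ-CD and at 0.93, 1.04 and 1.09 in PBS, with RG@M-γ-CD replicate 3 the highest, and the change was 0.17 (standard error 0.16, 95% interval -0.21 to 0.55). For Stat5a the brightest probe ranged from 0.63 to 1.08 in RG@M-γ-CD and from 0.76 to 1.30 in PBS, a change of -0.12 (standard error 0.21, 95% interval -0.62 to 0.39). Its other probe, A_55_P1990495, which lies 1133 bases further 3′, had a log2 difference of 0.12 (standard error 0.17), so the sign for Stat5a depended on the probe, and the changes of both probes differed by 0.23 (exact permutation p = 0.30, adjusted 0.60). For Stat6 the range was 1.06 to 1.36 in RG@M-γ-CD and 1.18 to 1.28 in PBS, a change of 0.022 (standard error 0.15, 95% interval -0.35 to 0.39). Stat6 also had the smallest range of the 9 genes over the 6 arrays, 0.30, and 6.95% of all genes tested had a smaller one.

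With RG@M-γ-CD replicate 1 and PBS replicate 1 left out, Jak3 had the largest difference of the 9. It was -0.89 (standard error 0.21, unadjusted p = 0.00946, adjusted p = 0.209 from limma), and all other 8 genes had an unadjusted p above 0.05, where 12.3% of all genes lay below it. In this fit without both arrays, the differences of the others included -0.45 for Stat4, -0.31 for Jak2 and -0.28 for Stat5a. The probe shared with Insl3 had a difference of -0.83 (adjusted p = 0.232 from limma over all probes). Leaving out RG@M-γ-CD replicate 1 alone gave Jak3 -0.82 (adjusted p = 0.152 from limma), in a fit that called 206 of all genes but 0 of the 9, and leaving out RG@M-γ-CD replicate 2 gave -0.30. With the 2 arrays exchanged, the Jak3 level was -1.10 ± 0.38 in RG@M-γ-CD replicates 2 and 3 with PBS replicate 1 and -0.40 ± 0.20 in the other 3 arrays (SD, n = 3 each), a difference of -0.71 (standard error 0.23, unadjusted p = 0.0187, adjusted p = 0.297 from limma). The groups so formed did not overlap in Jak3 and in Jak1 (difference -0.19), 2 of the 9 genes, beside 25.5% of all genes under this grouping, and 1 of the 9 lay below an unadjusted p of 0.05, beside 16.5%. Past the adjusted threshold were 0 of the 9 and 0.0259% of all genes, and 6 of the 9 were lower, beside 63.8%. The median of all genes under this grouping was -0.12 and that of the 9 genes -0.074. Stat4 differed by 0.027 and Stat2 by 0.079 under it, so neither kept the sign it had as labelled.

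**Figure D2:**
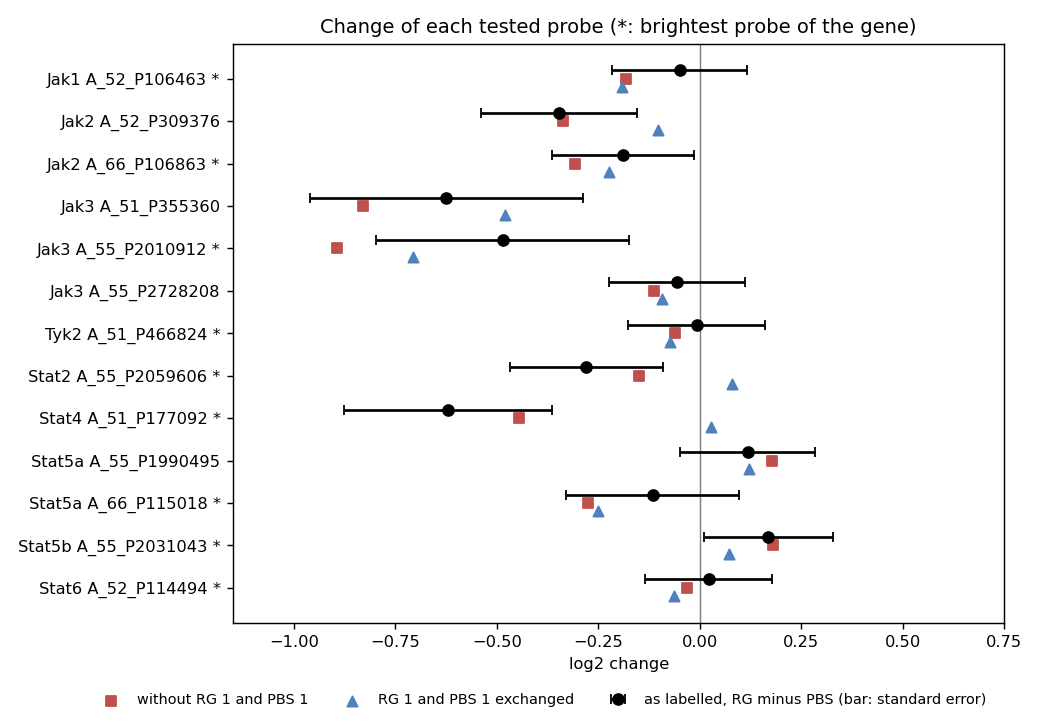
Log2 change of each of the 13 tested probes (horizontal axis) as labelled, RG@M-γ-CD minus PBS, with the standard error from limma (black circles), without RG@M-γ-CD replicate 1 and PBS replicate 1 (red squares), and with these 2 arrays exchanged (blue triangles); an asterisk marks the brightest probe of a gene. The brightest Jak3 probe lies at -0.49, -0.89 and -0.71 in the 3 fits, whereas Stat4 lies at -0.62, -0.45 and 0.027.

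The 6 arrays did not contribute equally. RG@M-γ-CD replicate 2 was the lowest array in 6 of the 9 genes, Jak1, Jak2, Jak3, Stat4, Stat5a and Stat6, and the highest in 0, while over all genes it was the lowest array in 36.7% and the highest in 20.6%. Without it, the median change of the 9 genes was 0.013 and 4 of them were lower, beside a median of 0.049 and 40.2% lower over all genes. PBS replicate 3 was the highest array in 3 of the 9, Jak1, Jak3 and Stat2, beside 13.4% of all genes.

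Because Jak3 and Stat4 are best known from blood cells, markers of the cell types in such tissue were set beside them, as the log2 of the summed level of each list. Of 10 T cell markers (brightest Zap70, Lck and Cd247) 9 were well above background on all arrays and Cd8a on none, and the summed level was 4.03 in RG@M-γ-CD replicate 1, 2.78 and 3.06 in RG@M-γ-CD replicates 2 and 3, and 3.61 to 3.78 in PBS. Of 7 neutrophil markers (brightest S100a9, S100a8 and Ly6g) 3 were above background on all arrays, and their sum stood at 6.08, 1.9996 and 2.90 in RG@M-γ-CD and at 4.51 to 5.67 in PBS. The sum of 8 macrophage markers, all above background throughout, ranged from 4.51 to 5.31 in RG@M-γ-CD and from 5.06 to 5.33 in PBS. In the sums of these 3 lists RG@M-γ-CD replicates 2 and 3 were the lowest arrays, as they were for Jak3. Single markers could differ from their sum. Mertk (macrophages) and Camp (neutrophils) were highest in these 2 arrays, and Cd247 (T cells) was lowest in PBS replicate 1. For 7 NK cell markers, of which Ncr1, Klrb1c, Klre1 and Eomes were above background on no array, the sum ranged from -0.021 to 0.29 in RG@M-γ-CD and from -0.47 to 0.96 in PBS.

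Stat4 shared its 2 highest arrays with another list, but not the order of the other arrays. The sum of 6 B cell markers (among the brightest Cd79b and Ms4a1), 3 of them above background on all arrays, was highest in PBS replicate 1 at 3.97 and next in PBS replicate 2 at 2.76, the same 2 arrays in which Stat4 was highest, and ranged from 1.34 to 2.37 in RG@M-γ-CD, but it was lowest in PBS replicate 3 at 0.30. Smooth muscle went the other way from Jak3. The sum of its 7 markers (brightest Cnn1, Smtn and Actg2), 6 of them above background on all arrays, was 8.24 and 8.55 in RG@M-γ-CD replicates 2 and 3, 5.47 in RG@M-γ-CD replicate 1, and 6.36 to 6.74 in PBS. Fibroblast markers (7 of 7 above background) ranged from 6.55 to 7.27 in RG@M-γ-CD and from 6.89 to 6.97 in PBS. Epithelial markers varied less, from 10.2 to 10.5 in RG@M-γ-CD and from 10.1 to 10.6 in PBS. The part of these cell types in the levels of Jak3 and Stat4 was not tested.

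**Figure D3:**
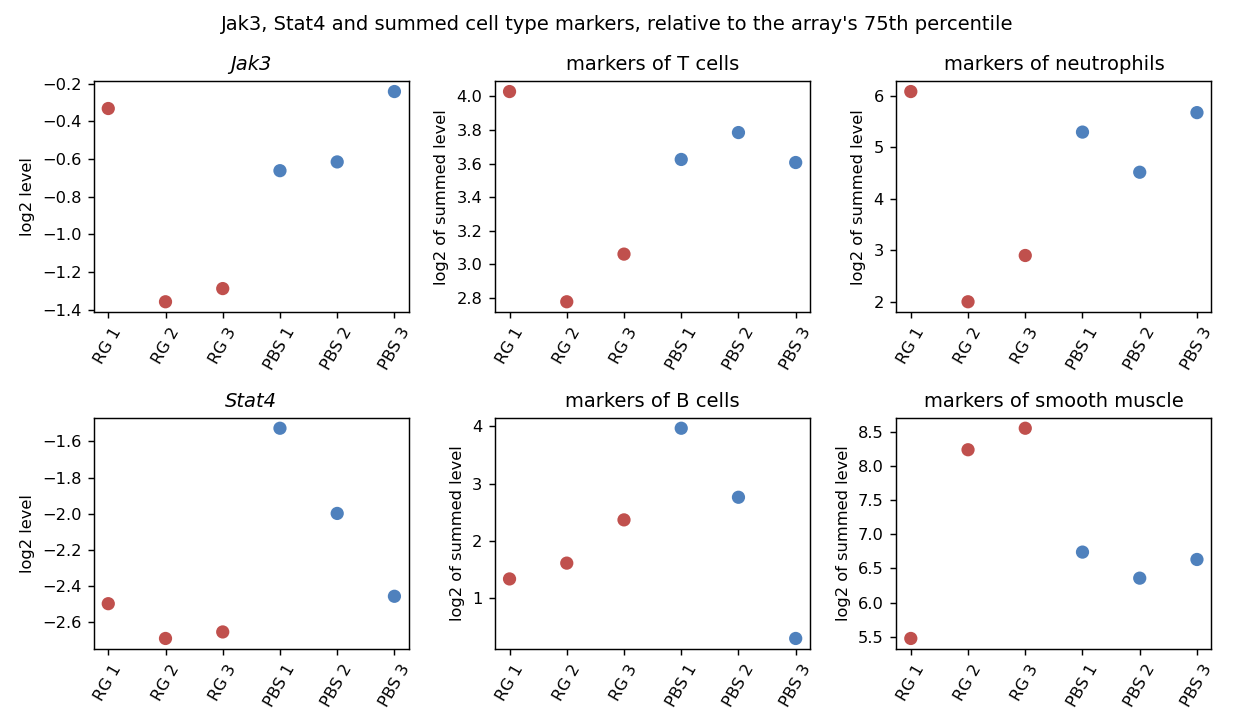
Levels of Jak3 and Stat4 and the log2 of the summed level of marker lists for T cells, neutrophils, B cells and smooth muscle, all relative to the 75th percentile of the array (vertical axes), on the 3 RG@M-γ-CD arrays (RG, red) and the 3 PBS arrays (blue). RG@M-γ-CD replicates 2 and 3 are the lowest arrays for Jak3, T cells and neutrophils and the highest for smooth muscle, and PBS replicate 1 is the highest for Stat4 and B cells.

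Genes of the receptor families that feed these kinases were grouped by chain, and in none of the lists that follow did a gene pass the adjusted threshold. The lists are not limited to chains that bind a Janus kinase. Over all genes the median was -0.012 as labelled. It was -0.088, with 60.8% lower, without RG@M-γ-CD replicate 1 and PBS replicate 1. With these 2 arrays exchanged it was -0.12, with 63.8% lower. A list of 11 receptor genes was drawn around the common γ chain, which binds JAK3. It also holds Il13ra1, Il13ra2 and Crlf2, which do not pair with that chain. Of the 11 genes 10 were tested, 9 had a lower mean in RG@M-γ-CD and 1 a higher one. The median log2 change was -0.60, and 2 lay below an unadjusted p of 0.05, both lower. Il13ra1, Il13ra2 and Crlf2 were among the lower genes, at -0.099, -0.54 and -0.24. Il7r stood at -0.53, -1.37 and -1.43 in RG@M-γ-CD and at -0.29, -0.40 and -0.17 in PBS, without overlap, a change of -0.83 (standard error 0.27, unadjusted p = 0.0202 from limma). Il2rb had a log2 difference of -0.87 (standard error 0.34, unadjusted p = 0.0382) and Il2rg, the γ chain itself, one of -0.66 (standard error 0.29, unadjusted p = 0.0627). The median of this list stayed negative with each array left out, between -0.84 without RG@M-γ-CD replicate 1 and -0.43 without PBS replicate 1, and was -0.57 with both arrays left out and -0.19 with the 2 arrays exchanged, where 8 of 10 were lower. Without both arrays the differences of Il7r, Il2rb and Il2rg were -1.12, -1.14 and -0.68, and with them exchanged -0.66, -0.65 and -0.24. As for Jak3, the list was lowest in RG@M-γ-CD replicates 2 and 3, and the sum of T cell markers was lowest there too.

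All 5 interferon receptor genes, whose chains bind JAK1 and TYK2 or JAK2, were lower in RG@M-γ-CD, with a median of -0.14 and 0 below an unadjusted p of 0.05. The median was -0.27 without both arrays and -0.26 with them exchanged, where 4 of 5 were lower. Of the 7 tested receptors of the IL-12, IL-23 and gp130 families, 5 were higher, with a median of 0.23, which was 0.42 without both arrays and 0.18 with them exchanged. Osmr, the oncostatin M receptor, was at 0.76, 0.84 and 0.84 in RG@M-γ-CD and at 1.35, 1.08 and 1.34 in PBS, a change of -0.44 (standard error 0.15, unadjusted p = 0.0254), and Il27ra had a log2 difference of -0.72 (standard error 0.27, unadjusted p = 0.0345), in both without overlap. Il6st, which encodes gp130, had a log2 difference of 0.41 (standard error 0.22). Without both arrays the differences of Osmr, Il27ra and Il6st were -0.37, -0.58 and 0.67, and with them exchanged -0.046, -0.055 and 0.47. Il12rb2 and Il23r, through which IL-12 and IL-23 reach STAT4 and STAT3, were not well above background in all arrays of either group. The 9 tested β-common and homodimeric receptors had a median of -0.052, 6 of them lower (-0.081 without both arrays, -0.19 with them exchanged), and Csf2rb2 and Il5ra, which signal through JAK2, had a log2 difference of -0.71 (standard error 0.28, unadjusted p = 0.0406) and -1.27 (standard error 0.50, unadjusted p = 0.0411). Without both arrays these were -0.83 and -2.01, and with them exchanged -0.40 and -1.41. The 5 tested receptors of the IL-10 family had a median of -0.18, with 3 lower. That median was -0.13 without both arrays and turned to 0.49 with them exchanged, where 2 of 5 were lower.

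Of 23 cytokine ligand genes, 7 were tested, and 16 were not well above background in all arrays of either group, among them Il2, Il4, Il10, Il12a, Il12b and Il13. Osm, which encodes oncostatin M, stood at -0.91, -2.08 and -2.32 in RG@M-γ-CD and at -0.089, -0.82 and -0.67 in PBS, a change of -1.24 (standard error 0.41, unadjusted p = 0.0204), without overlap. Il23a had a log2 difference of -1.05 (standard error 0.42, unadjusted p = 0.0421). Without both arrays these differences were -1.45 and -1.16, and with them exchanged -0.70 and -0.49. The median of the 7 ligands was -0.20 as labelled, -0.22 without both arrays and -0.28 with them exchanged.

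Inhibitors and adapters of the pathway were centered near zero. Of 8 SOCS genes, which bind the receptor or the kinase and shut the signal off, 5 were lower, with a median of -0.052. It was -0.12 without both arrays and -0.098 with them exchanged, beside -0.088 and -0.12 over all genes. Socs1 was the one below an unadjusted p of 0.05, at -0.19, -0.50 and -0.45 in RG@M-γ-CD and at 0.97, -0.11 and 0.48 in PBS, a change of -0.83 (standard error 0.29, unadjusted p = 0.0265), and the difference was -0.66 without both arrays and -0.055 with them exchanged. Socs2 had a log2 difference of 0.32 (standard error 0.24), which was 0.44 without both arrays and 0.27 with them exchanged. The 9 PIAS and phosphatase genes had a median of 0.025, with Pias3 at 0.34 (standard error 0.15, unadjusted p = 0.0599) as the gene in which all RG@M-γ-CD arrays lay above all PBS arrays. The median of these 9 was -0.048 both without the 2 arrays and with them exchanged, and Pias3 stood at 0.45 and 0.25. The 8 adapter genes had a median of 0.031, which was 0.0068 without both arrays and -0.023 with them exchanged. Stat3, which lies outside the set of 9, had a log2 difference of -0.34 (standard error 0.17), which was -0.52 without both arrays and -0.35 with them exchanged.

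**Figure D4:**
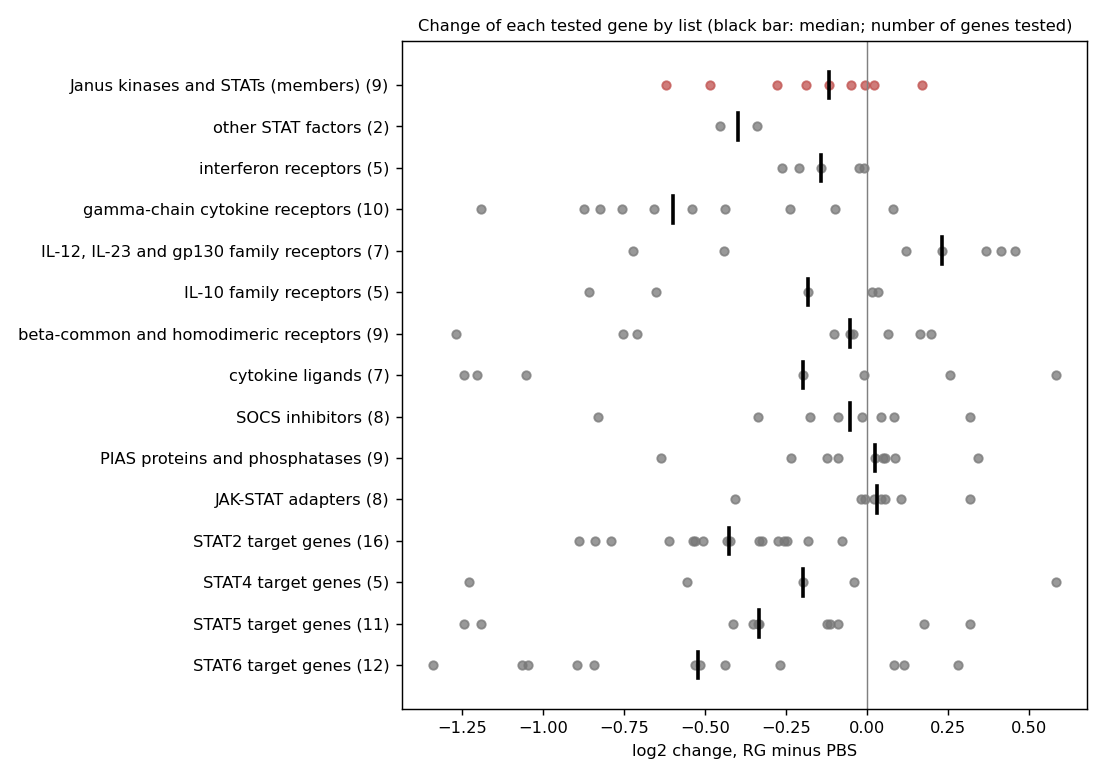
Log2 change, RG@M-γ-CD minus PBS as labelled (horizontal axis), of each tested gene (points) in the set of 9 (red) and in 14 lists of other genes of the pathway (gray), with the median of each list as a black bar and the number of genes tested in brackets. The medians run from -0.60 for the γ-chain receptor list to 0.23 for the IL-12, IL-23 and gp130 family receptors. All 16 STAT2 target genes lie below zero.

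Genes known as targets of the STAT factors were listed by factor. The lists do not separate genes that a factor raises from genes that it lowers. All 16 STAT2 target genes were lower in RG@M-γ-CD, with a median log2 change of -0.43, 3 of them lay below an unadjusted p of 0.05, and 4 did not overlap between groups, all with RG@M-γ-CD below. Over all genes 52.8% were lower, 2.2% lay below that p and 2.19% had RG@M-γ-CD below without overlap. Ifit1, an antiviral protein induced by interferon, stood at -0.96, -0.69 and -0.67 in RG@M-γ-CD and at -0.028, -0.24 and 0.62 in PBS, a change of -0.89 (standard error 0.25, unadjusted p = 0.0114). Rtp4 had a log2 difference of -0.54 (standard error 0.20, unadjusted p = 0.0349) and Ifit3 one of -0.51 (standard error 0.19, unadjusted p = 0.0364). The median of the list was negative with each array left out, between -0.61 without PBS replicate 2 and -0.20 without PBS replicate 3. With RG@M-γ-CD replicate 1 and PBS replicate 1 both left out the median was -0.33, and with them exchanged it was -0.025, with 9 of the 16 genes lower. Ifit1, Rtp4 and Ifit3 stood at -0.87, -0.45 and -0.39 without both arrays and at -0.27, -0.056 and -0.018 with them exchanged. These genes respond to one signal and are not independent of each other, and their order over the arrays, lowest in RG@M-γ-CD replicates 1 and 3 and highest in PBS replicates 1 and 3, was also that of Stat2.

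The upstream sequence of Stat2 itself holds a match to the interferon-stimulated response element, searched as GAAANNGAAA on both strands. It is printed here because Stat2 and the interferon targets shared their order over the arrays. The window is the 250 bases before the RefSeq start of the gene on GRCm38.p6, chr10:128270248-128270497 on the plus strand, with the match in capitals, read here on the opposite strand.
Stat2 upstream: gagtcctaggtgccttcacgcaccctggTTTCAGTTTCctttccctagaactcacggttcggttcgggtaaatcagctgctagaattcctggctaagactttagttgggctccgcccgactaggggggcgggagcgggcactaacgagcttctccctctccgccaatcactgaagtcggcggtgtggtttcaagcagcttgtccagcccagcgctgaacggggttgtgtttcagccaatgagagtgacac
Of the 12 windows that RefSeq gives for the 9 genes (each running on for 50 bases past the start), 2 held this motif, that of Stat2 and 1 of the 2 windows of Stat4, where its first base lies at -97 from the start, beside 3.44% of 32851 windows of all genes. The STAT motif TTCNNNGAA, which reads the same on both strands, was in 0 of the 12 and in 8.3% of all windows. A match is a description of the letters and not evidence of binding.

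For the other factors the target lists were smaller or mixed. Of 9 STAT4 target genes 5 were tested, 4 were lower and the median was -0.20. It was -6.6e-05 without both arrays and 0.10 with them exchanged, where 2 of 5 were lower. Tbx21 and Hlx, factors of the type 1 response, were not tested for want of signal. Of 11 STAT5 target genes 9 were lower, with a median of -0.33 (-0.53 without both arrays, -0.35 with them exchanged). Osm is also on this list, and Bcl6 stood at 2.60, 2.14 and 2.29 in RG@M-γ-CD and at 2.71, 2.74 and 2.83 in PBS, a change of -0.41 (standard error 0.17, unadjusted p = 0.0517) without overlap, beside -0.57 without both arrays and -0.35 with them exchanged. Socs2, another STAT5 target, had the difference of 0.32 given above. Of 13 STAT6 target genes 12 were tested and 9 were lower, with a median of -0.52 that stayed between -0.68 and -0.34 with each array left out and was -0.55 without both arrays and -0.50 over 11 genes with them exchanged. Ccl17, a chemokine induced by IL-4, stood at -0.87, -1.44 and -1.92 in RG@M-γ-CD and at -0.56, -0.81 and -0.17 in PBS, a change of -0.90 (standard error 0.31, unadjusted p = 0.0259), without overlap, beside -1.19 without both arrays and -0.69 with them exchanged. Ccl24 had a log2 difference of -1.05 (standard error 0.46, unadjusted p = 0.0583 from limma), which was -0.63 without both arrays and turned to 0.20 with them exchanged. Chil3 had the highest change of the list, 0.28 (standard error 0.99), which turned to -1.34 with the arrays exchanged. Arg1, a marker of macrophages activated by IL-4, ranged from -0.72 to 2.36 in RG@M-γ-CD and from 1.41 to 2.35 in PBS, and had a log2 difference of -1.07 (standard error 0.74). RG@M-γ-CD replicate 1 was the highest array, and the difference was -2.07 without both arrays and -1.69 with them exchanged (unadjusted p = 0.0162, adjusted p = 0.297 from limma). Stat6 itself varied by 0.30 over the same arrays.

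**Figure D5:**
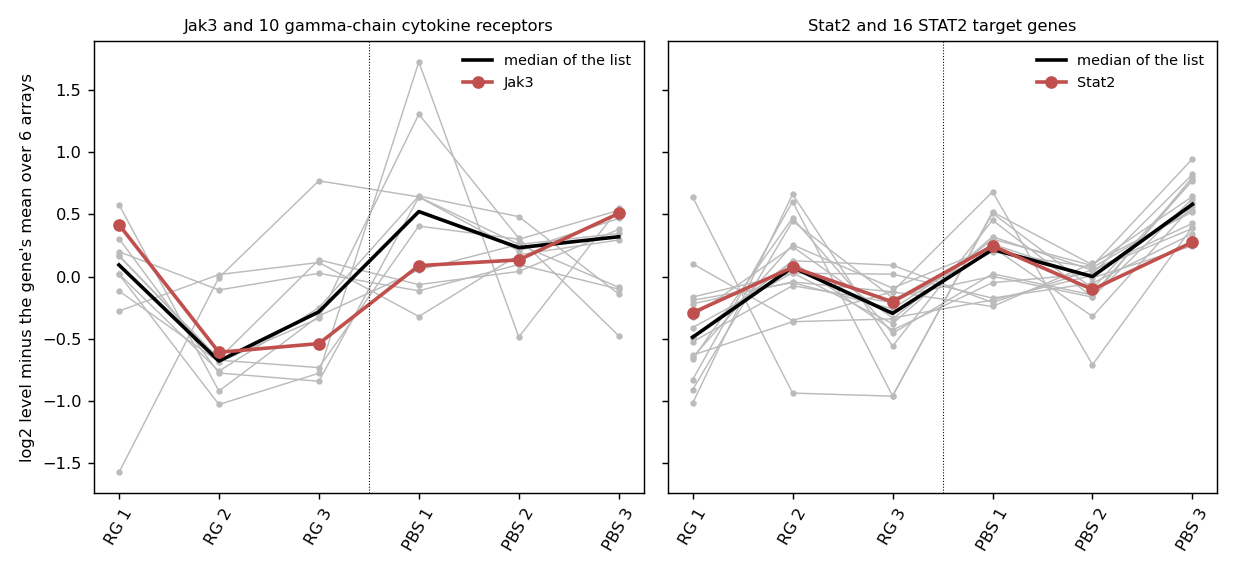
Log2 level minus the gene's own mean over the 6 arrays (vertical axis). The left panel shows Jak3 with the 10 tested genes of the γ-chain receptor list, and the right panel Stat2 with the 16 STAT2 target genes. Gray lines join the points of a gene, the black line is the median of the list and the red line the kinase or factor. The order of the arrays within a group has no meaning. The γ-chain list has its lowest medians in RG@M-γ-CD replicates 2 and 3 (-0.68 and -0.28), as Jak3 has, and the STAT2 list in RG@M-γ-CD replicates 1 and 3 (-0.49 and -0.30), as Stat2 has.

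The genes whose levels over the 6 arrays were most like those of each member were named by Pearson's r among 19086 other genes, as a description without a test, since 6 arrays and so many genes give high values by the choice alone. The nearest to Jak3 were Xpo4, Nckap5 and Map3k1 (r of 0.996, 0.995 and 0.994), and 147 genes had r above 0.95. The nearest to Stat4 were Myo1g, Gpr183 and Flt3 (0.995, 0.993 and 0.987), which are genes of blood cells, with 28 above 0.95. The nearest to Stat2 was Cxcl9, a chemokine induced by interferon (0.992). The nearest to Stat5b were Vcl, Eda and Kcnj8 (0.996, 0.993 and 0.988). Jak1 was nearest to Pip4p2 (0.999), Jak2 to Pik3ap1 (0.998), Tyk2 to Gm29678 (0.993), Stat5a to H2ac1 (0.994) and Stat6 to Mdc1 (0.998).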

How the data were processed

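For each array the authors deposited the output of the scanner software (Agilent Feature Extraction 10.7.1.1), which holds spot intensity after spatial detrending, not normalized between arrays. They also deposited a table of log2 values whose columns share 1 distribution; its normalization method is not given in the sources used here. After removal of control spots and outlier-flagged spots, log2 intensity was averaged per probe and scaled by subtracting, on each array, the 75th percentile over gene probes (R 4.3.3 with the data.table package, version 1.17.8). Symbols came from RefSeq through the accession for 58.3% of the gene probes and otherwise from the scanner output. The test covered probes well above background in every array of one group or the other, and each gene was read on its brightest such probe. limma 3.58.1 (lmFit and eBayes) was fitted over all genes and, separately, over all probes, with Benjamini-Hochberg adjustment; probes were also compared by exact permutation. The fit was checked on simulated data. The 9 genes, the pathway and marker lists and the tests were chosen with earlier results of these data known. Genes named are the 9, the 3 of smallest unadjusted p in each pathway list, and the 3 most like each member; some genes under this rule are not reported here; those named as not tested, and the extremes of lists, were named for that. The number of arrays limits the precision. Alternatives were quantile normalization, normexp, the authors' table, no filter, a filter on all 6 arrays, mean probes, outlier spots kept, a replicate block, a slide row block, the methods' t-test, and leaving out or exchanging arrays.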

Additional observations from a re-analysis of the deposited data

How the results depend on the processing

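In each of the 18 alternatives 0 of the 9 genes passed the adjusted threshold. With 1 array left out in turn, the median log2 change of the 9 genes ranged from -0.18 to 0.013. In the same fits the median of all genes was -0.061 and 0.049. Over all alternatives 145 values of the genes kept their sign and 17 did not, and 67 values of the dimmer probes kept it and 1 did not. None of these results had passed the threshold. The sign turned for Jak1 (0.13) and Stat5a (0.13) with slide row as a block, for Stat5a (0.00052) with the mean of its probes, for Stat2 (0.079), Stat4 (0.027) and Stat6 (-0.063) with RG@M-γ-CD replicate 1 and PBS replicate 1 exchanged, and for Stat6 (-0.031) with both left out. With 1 array left out, changes ranged from -0.14 to 0.026 for Jak1, from -0.11 to 0.074 for Tyk2, from -0.24 to 0.032 for Stat5a, from -0.035 to 0.11 for Stat6 and from -0.15 to 0.0085 for the Jak3 probe A_55_P2728208. The cause was not tested. Replicate numbers are shared between groups, and the labels do not say that they pair the mice. Deviations of same-numbered arrays correlated at -0.25, -0.23 and 0.14 across genes. As genes are not independent replicates, these values cannot show whether mice were paired. With the replicate number as a block, the median of the 9 genes was -0.12, and 0 genes of the 19087 passed, as without the block.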
